A study of Mus musculus with 6 samples.

Results

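The 9 genes described here encode the receptors, co-receptor, decoy and single-receptor inhibitor of the interleukin-1 (IL-1) cytokine family, together with the soluble IL-1 receptor antagonist: Il1rl1, Il1r1, Il1r2, Il1rap, Il18r1, Il18rap, Il1rl2, Sigirr and Il1rn. They were chosen by gene symbol, and all 9 were found among the 24421 genes of the deposited count matrix. The libraries came from CD4+YFP+ regulatory T (Treg) cells sorted from spleens of female C57BL/6 mice aged 8 to 11 weeks. The 3 control mice carried Foxp3Cre-YFP, which drives Cre recombinase and a yellow fluorescent reporter from the Foxp3 locus, and are called WT. The 3 KO mice carried the same Cre-YFP allele and a floxed microRNA gene (Foxp3Cre-YFP miR-142fl/fl), so both groups expressed Cre. The cells were not treated, and 1 library was made per mouse. Because the study describes systemic inflammation in the KO mice, effects of the inflamed host and of the deletion within the cells cannot be told apart here.

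Receptors of this family pair a ligand-binding chain with an accessory chain, and both carry an intracellular TIR domain that recruits the adaptor MyD88. IL1RAP is the accessory chain shared by the receptors for IL-1, IL-33 and IL-36, whereas IL-18 uses its own accessory chain, encoded by Il18rap. ST2, the IL-33 receptor encoded by Il1rl1, marks Treg cells of an effector and tissue type, and IL-33 is an alarmin released by damaged cells. IL1R2 binds IL-1 without signalling, and SIGIRR and the receptor antagonist restrain signalling in other ways.

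miR-142 acts by pairing of its seed (bases 2 to 8, in capitals) with messenger RNA. RefSeq sequences of both mature strands on GRCm38.p6 are shown because the matches in the receptor genes are read against them.
mmu-miR-142a-3p: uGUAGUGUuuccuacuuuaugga
mmu-miR-142a-5p: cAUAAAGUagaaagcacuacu
Annotated 3′ UTRs (GENCODE vM21, GRCm38) were searched on the transcript strand for ACACTAC or CACTACA (3p.1, the annotated 3p strand), for AACACTA or ACACTAA (3p.2, the 3p strand starting 1 base later) and for ACTTTAT or CTTTATA (5p). The 3p.1 and 3p.2 motifs overlap, so 1 stretch can match both. Of the 9 genes, 3 held a match in the longest annotated 3′ UTR. These are the matched stretches, with the match in capitals and its flanking bases in lower case.
Il1rl1, 3p.1, chr1:40463444-40463451, plus strand: gctgagattgtACACTACAgactaggc
Il1rl2, 3p.1, chr1:40365469-40365476, plus strand: tgtgttggctcACACTACAtcctctct
Il1rap, 3p.2, chr16:26729049-26729055, plus strand: agtgcaattccAACACTAgaccattg
Il1rap, 5p, chr16:26729929-26729935, plus strand: cccattgtaagCTTTATAttgtatac
Il1rl1 and Il1rl2 thus shared an 8-base 3p.1 match, in exon 11 of 11 in both transcripts, and their levels moved in opposite directions (values follow). Among the 10793 tested genes with an annotated 3′ UTR, 13.5% held a 3p.1 match, 16.2% a 3p.2 match and 24.0% a 5p match, and 3.43% (370 genes) held the 8-base 3p.1 form. Of those 370 genes, which include both receptors, 26.8% were called higher and 5.14% lower in KO, against 11.6% and 7.27% of all genes tested. With any annotated 3′ UTR in place of the longest, Il18r1 also matched, which made 4 of the 9 genes. On that basis 15.3%, 18.2% and 26.2% of the tested genes held a 3p.1, 3p.2 and 5p match. The share of genes holding any of the 3 matches was not computed, so the counts of 3 and 4 genes lack a background. The Il1rap stretches shown belong to a transcript of 3 exons and 165 codons. Its 570-codon transcript held a 5p match and no 3p match, its 685-codon transcript a 3p.2 and a 5p match, and its 640-codon transcript none. The Il18r1 matches were in transcripts of 267 or 372 codons, and its 537-codon transcripts held none. These matches describe the letters of the transcripts and were not tested as binding sites.

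Total counts lay between 13883069 and 24042994 per library, and 3 counts, taken as the floor of detection, corresponded to between 0.123 and 0.227 CPM (counts relative to sequencing depth, scaled with TMM factors). Mir142b, the antisense annotation over the targeted locus, fell to between 0.342 and 0.389 CPM in the KO libraries from between 4.14 and 9.05 CPM in WT. The Treg cell genes Foxp3, Cd4, Cd3e and Ikzf2 were all strongly expressed in every library, with Foxp3 between 536 and 749 CPM. KO replicate 1 stood apart through marker genes of other cells, with 12 of 13 neutrophil markers and all 12 monocyte and macrophage markers highest there. Its neutrophil sum was 1038 CPM, against 4.37 to 49.5 CPM in the other 5 libraries, and its monocyte and macrophage sum was 2959 CPM, against 48.8 to 159 CPM. B cell, dendritic cell and erythroid marker sums were also highest there. In bulk libraries, fewer cells expressing a gene and less RNA per cell cannot be told apart. The libraries of a group came from separate mice, and every pair of replicates differed by more than counting noise.

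The receptor genes covered a wide range of levels. Compared per kilobase of merged exons, the order in WT was Sigirr (mean 44.7 CPM per kb), Il18r1 (40.8), Il1r2 (16.1), Il1rl1 (11.3), Il18rap (6.57), Il1rap (2.17), Il1rl2 (0.330), Il1rn (0.239) and Il1r1 (0.0467). Libraries of Sigirr and Il18r1 overlapped on this scale in WT, as did those of Il1r2 and Il1rl1, and those of Il1rl2 and Il1rn. In KO the order was Sigirr (52.0 CPM per kb), Il18r1 (43.1), Il1rl1 (33.8), Il1r2 (27.1), Il18rap (7.75), Il1rap (2.05), Il1rn (0.787), Il1rl2 (0.114) and Il1r1 (0.0799), so that Il1rl1 stood above Il1r2 by its mean. KO libraries of Il1rl1 and Il1r2 overlapped, since Il1rl1 ran from 20.1 to 57.2 and Il1r2 from 23.4 to 31.6 CPM per kb. Those of Sigirr and Il18r1, and of Il1rl2 and Il1r1, overlapped as well. The KO mean of Il1rn rested on KO replicate 1 (2.16 CPM per kb), and in KO replicates 2 and 3 it was 0.0821 and 0.124, against 0.122 and 0.0904 for Il1rl2.

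**Figure D1:**
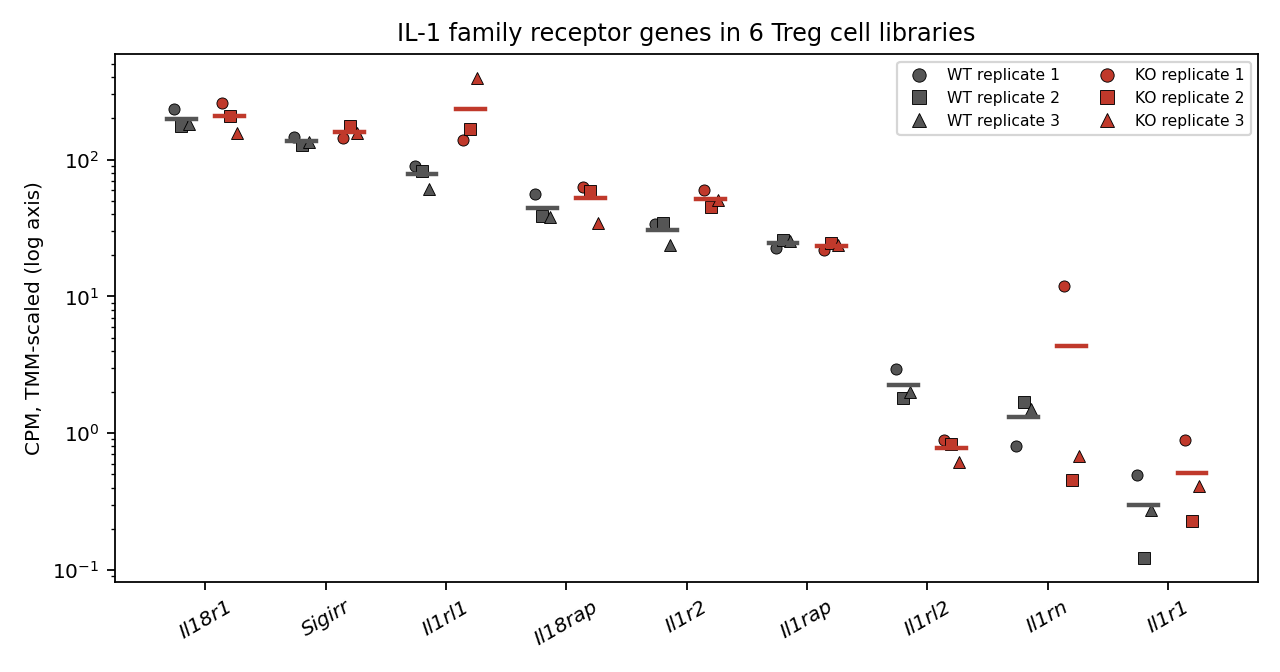
Level of each receptor gene in each library, as TMM-scaled CPM on a log axis, with grey symbols for WT, red symbols for KO, a symbol shape per replicate number and a bar at the group mean (n = 3). Il1rl1 and Il1r2 are higher in all 3 KO libraries, Il1rl2 is lower in all 3, and Il1r1 lies near the floor. Il1rn lies between 0.801 and 1.68 CPM in WT, at 0.454 and 0.684 CPM in KO replicates 2 and 3, and at 11.9 CPM in KO replicate 1.

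KO was compared with WT in 1 edgeR fit over the 11658 genes that exceeded 1 CPM in 3 or more libraries. Each gene was judged by the quasi-likelihood F test (QLF) and its Benjamini-Hochberg false discovery rate (FDR). Of the 9 receptor genes, 8 passed this filter, and at an FDR under 0.05 Il1rl1 and Il1r2 were called higher and Il1rl2 lower. Among all genes tested, 11.6% were called higher and 7.27% lower (18.8% in all), so 3 calls among 8 genes is a small count to set against that background. Il1rl2 entered the fit only through its WT libraries, since all its KO libraries were below 1 CPM. The KO libraries lay wholly above the WT libraries for Il1rl1 and Il1r2 and wholly below them for Il1rl2, a separation that 22.2% and 18.8% of all tested genes showed in the respective direction (41% in either). At an FDR under 0.01 none of the 8 genes was called, against 4.2% of all genes higher and 1.68% lower. With robust estimation Il1r2 was called higher and Il1rl2 lower, against 11.3% and 7.39% of all genes. The median log2 fold change of the 8 genes was 0.23, against 0.02 over all genes tested.

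**Figure D2:**
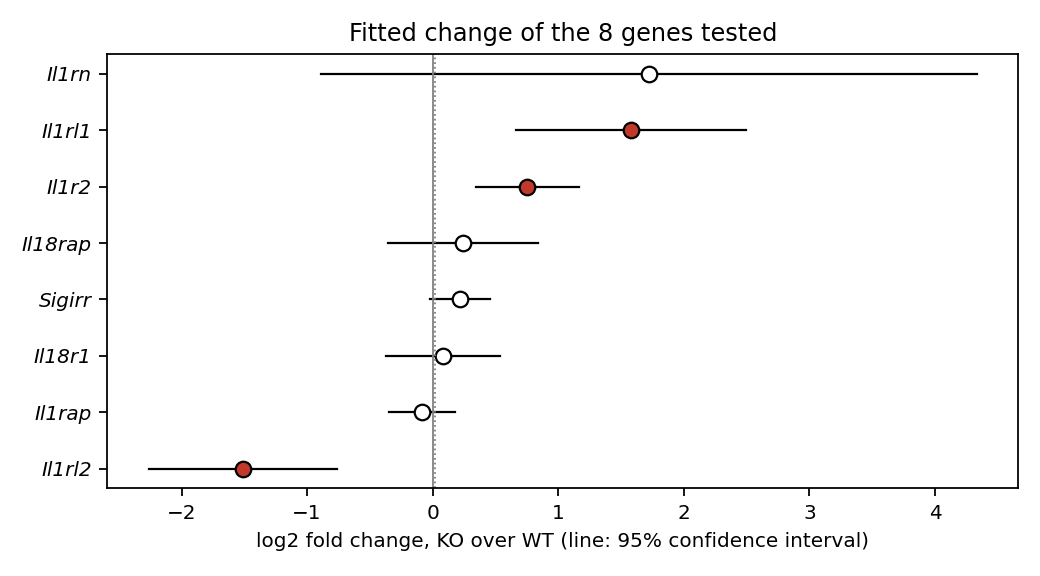
Fitted log2 fold change, KO over WT, of the 8 receptor genes tested, with 95% confidence intervals from the model (n = 3 per group). Filled points passed an FDR of 0.05, open points did not, and the dotted line is the median of all genes tested (0.02). The interval of Il1rn is the widest of the 8, from -0.89 to 4.33.

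Il1rl1, which encodes ST2, rose 2.99-fold in KO Treg cells. Its level was 90.1, 82.4 and 61.1 CPM in WT replicates 1, 2 and 3, and 139, 167 and 394 CPM in KO replicates 1, 2 and 3. All KO libraries were above all WT libraries, but KO replicate 3 stood far above the other KO libraries. Means and SDs of the 3 libraries of a group were 77.9 ± 15.0 CPM for WT and 233 ± 140 CPM for KO, and the fitted change on the log2 scale was 1.58 (SE 0.39, FDR = 0.0322 in the QLF test). Without KO replicate 3 the log2 fold change was 0.96 (FDR = 0.0254), and without KO replicate 1 it was 1.83 (FDR = 0.00724). Leaving out any WT library left a log2 fold change between 1.43 and 1.67 and ended the call, with FDR values of 0.0858, 0.107 and 0.114 without WT replicates 1, 2 and 3. In those 3 fits the share of all genes called higher was also smaller, between 4.18% and 5.78%, as 2 WT libraries were set against 3 KO libraries.

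Il1rl1 lies on chromosome 1 of GRCm38 from 40429570 to 40465415, on the plus strand, within a run of 6 receptor genes. Its annotated transcripts end in different ways, and as background the long form encodes membrane ST2 and the short form the secreted decoy. Transcripts with 567 codons carried a 3′ UTR of 3246 or 3227 bases and the 8-base 3p.1 match shown above. Transcripts with 337 codons had 8 exons and lacked that match. The longer of these, with a 3′ UTR of 1444 bases, held a 3p.2 match instead, shown here to set it beside the match of the membrane form.
Il1rl1, 337-codon transcript, 3p.2, chr1:40447378-40447384, plus strand: gagggagagagACACTAActctaaga
The deposited counts are per gene, so the membrane and secreted forms were not separated.

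Other cells that express ST2 were read through their marker genes. The mast cell and basophil list of 9 genes summed to 2.77 to 3.20 CPM in WT and to 23.0, 6.44 and 13.5 CPM in KO replicates 1, 2 and 3. Most of the KO sums was Kit (log2 fold change 1.95, FDR = 0.00369) and Hdc (3.03, FDR = 0.0431), which were both called higher, Hdc having passed the filter only through its KO libraries. Ms4a2, Mcpt8 and Prss34 had reads only in KO replicates 1 and 3, at most 0.278, 0.944 and 1.83 CPM, and Gata2 reached 1.16 CPM in KO replicate 3. Fcer1a was at 0.167 CPM or less, Cpa3 at 0.820 CPM or less, and Tpsb2 had no counts in any library. The list of 6 genes for group 2 innate lymphoid cells summed to 12.8 to 20.3 CPM in WT and to 32.7, 40.7 and 37.6 CPM in KO. Il17rb (log2 fold change 1.22, FDR = 0.0246) and Hes1 made up most of that difference. Hes1 was between 6.71 and 7.95 CPM in KO and at 0.774 CPM or less in WT, so it was tested only through its KO libraries, and the cytokine genes Il13 and Il5 were at 0.611 CPM or less in every library. The part of such cells in the Il1rl1 result was not tested.

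Il1r2, the gene of the IL-1 decoy receptor, rose 1.69-fold. It was at 34.1, 34.3 and 23.8 CPM in the WT libraries and at 60.2, 44.7 and 50.4 CPM in the KO libraries, in replicate order. The lowest KO library was above the highest WT library. Means and SDs (n = 3) were 30.7 ± 5.97 CPM for WT and 51.8 ± 7.83 CPM for KO, and the fitted log2 fold change was 0.75 (SE 0.18, QLF FDR = 0.0264). Without KO replicate 1 the log2 fold change was 0.61 (FDR = 0.0487), and KO replicates 2 and 3 each exceeded every WT library. Neutrophils also express the decoy receptor. Their markers summed to 4.37 to 5.91 CPM in WT and to 1038, 16.8 and 49.5 CPM in KO replicates 1, 2 and 3. In KO replicates 2 and 3 most of the sum was Mmp9 (8.93 and 8.01 CPM) and Mpo (6.21 and 32.2 CPM). Elane was at 1.21 and 4.31 CPM there, and S100a8, S100a9, Ltf, Lcn2 and Csf3r were at 1.23 CPM or less. Mmp9 was also at 3.73 to 4.62 CPM in WT. The part of neutrophils in the Il1r2 result was not tested. The call ended without any 1 WT library and without KO replicate 3, with FDR values between 0.0645 and 0.0712. Il1r1 encodes the signalling receptor for IL-1 and was close to the floor in every library, with 8, 3 and 5 counts in WT and 16, 3 and 6 counts in KO. It was left out of the fit by the filter, and its groups overlapped (exact two-sided permutation test on log2 of CPM plus 0.5, p = 0.5). With 3 libraries against 3, the smallest p this test allows is 0.1. Per kilobase, the level of the decoy receptor was far above that of the signalling receptor in every library. Il1rapl1 and Il1rapl2, more distant members of the family, did not exceed 3 counts in any library.

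Il1rl2, the gene of the IL-36 receptor, was scarce and fell in KO. It had 48, 44 and 36 counts in WT replicates 1, 2 and 3 (2.96, 1.80 and 1.99 CPM) and 16, 11 and 9 counts in KO replicates 1, 2 and 3 (0.888, 0.833 and 0.616 CPM). All KO libraries were below all WT libraries. Its fitted log2 fold change was -1.51 with an SE of 0.32 (QLF FDR = 0.0195). Leaving out any WT library removed the gene from the fit, and without KO replicate 3 its FDR was 0.0535. Il1rl2 neighbours Il1rl1 in the genome (chromosome 1, 40324610 to 40367562), and its 8-base 3p.1 match lies 24 bases into the 3′ UTR of its 574-codon transcript. A second annotated 574-codon transcript ends after 26 bases of 3′ UTR and lacks the match.

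**Figure D3:**
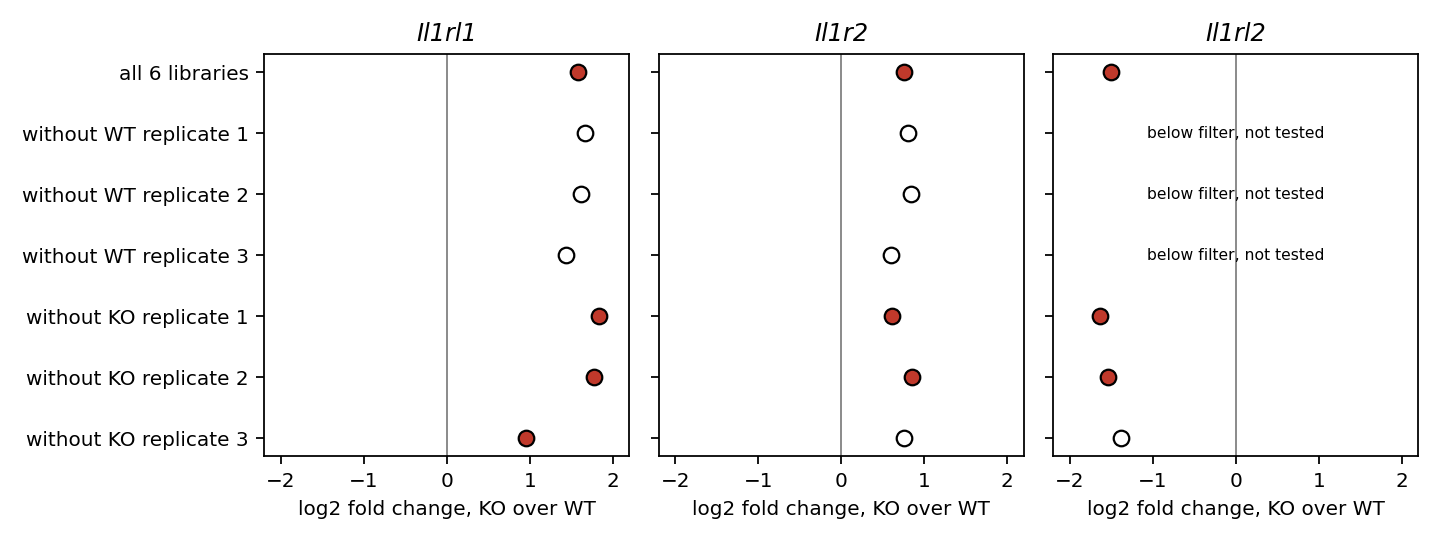
Log2 fold change, KO over WT, of the 3 genes called, with all 6 libraries and with each library left out. Filled points have an FDR under 0.05 and open points do not. The direction is the same in every fit shown, while the calls of Il1rl1 and Il1r2 are lost without any WT library and Il1rl2 falls below the filter there.

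The receptor for IL-18 was abundant in both groups, and neither of its genes was called. Il18r1, the ligand-binding chain, was at 233, 176 and 181 CPM in WT and at 257, 209 and 157 CPM in KO. These ranges overlapped at both ends, with a log2 fold change of 0.08 (95% CI -0.37 to 0.53, FDR = 0.803, QLF test). Its sign turned without KO replicate 1, to -0.12 (FDR = 0.655), and with scaling by library size alone, to -0.0024. Il18rap, the accessory chain, was at 56.2, 38.8 and 38.1 CPM in WT and at 63.6, 59.1 and 34.4 CPM in KO. It was likewise not called, with a log2 fold change of 0.24 (95% CI -0.36 to 0.84, FDR = 0.547). The libraries that were high for one chain were mostly high for the other, so the ratio of Il18rap to Il18r1 per kilobase varied little, from 0.150 to 0.172 in WT and from 0.156 to 0.202 in KO. CD8 and NK cells, which also express this receptor, were represented by a list of 8 markers that summed to 26.6 to 29.8 CPM in WT and to 96.4, 60.4 and 51.1 CPM in KO. Eomes was called higher (log2 fold change 2.68, FDR = 0.000880), at 29.8 to 42.0 CPM in KO against 4.35 to 6.69 CPM in WT. Cd8b1 was not called (log2 fold change 0.12, FDR = 0.695), at 11.5 to 13.8 CPM in WT and 11.4 to 17.1 CPM in KO. Klre1 was at 1.11 CPM or less. Cd8a was at 19.0 CPM and Prf1 at 18.5 CPM in KO replicate 1, against at most 1.97 and 6.64 CPM elsewhere. Klrb1c was at 2.38 to 3.94 CPM in WT and at 1.39 CPM or less in KO, Ncr1 was at 0.111 CPM or less and Klra8 had no counts. The part of those cells in the Il18r1 and Il18rap values was not tested.

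Il1rap, the shared accessory chain, was among the steadiest of the 9 genes. It was at 22.7, 25.7 and 25.6 CPM in WT and at 21.7, 24.4 and 23.7 CPM in KO. The fitted log2 difference was -0.09, with a 95% interval of -0.35 to 0.18 (FDR = 0.630, QLF test). An antisense gene, Gm20319, overlaps exons of Il1rap (chromosome 16, 26581704 to 26730117), and the counting did not use strand, so reads of the pair cannot be told apart. Sigirr, which encodes an inhibitor of IL-1 family receptor signalling, was at 146, 129 and 134 CPM in WT and at 143, 175 and 156 CPM in KO. KO replicate 1 lay within the WT range and KO replicates 2 and 3 above it, and the fitted log2 change was 0.22 (95% CI -0.02 to 0.45, FDR = 0.177). The intervals of Il1rap and Sigirr exclude a change as large as that fitted for Il1r2.

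Il1rn, the IL-1 receptor antagonist, was detected mainly in KO replicate 1. It had 215 counts there (11.9 CPM), against 6 and 10 counts in KO replicates 2 and 3 (0.454 and 0.684 CPM) and 13, 41 and 27 counts in WT (0.801, 1.68 and 1.49 CPM). KO replicates 2 and 3 were below all WT libraries, and KO replicate 1 was above them. The fitted log2 fold change of 1.72 (SE 1.11, FDR = 0.315, QLF test) was not called, and the gene fell below the filter without KO replicate 1, WT replicate 2 or WT replicate 3. Myeloid markers were highest in the same library, as given above, and their part in the Il1rn value was not tested.

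Ratios within a library do not depend on scaling between libraries. Their size depends on the merged exon length, 6.894 kb for Il1rl1 and 11.36 kb for Il1rap, while their change between groups does not. For comparison, the longest 567-codon transcript of Il1rl1 has 5302 bases and the 570-codon transcript of Il1rap 4520 bases. Per kilobase, Il1rl1 stood to its accessory chain Il1rap at 6.53, 5.27 and 3.94 in WT and at 10.5, 11.3 and 27.4 in KO. Every KO ratio was above every WT ratio (exact two-sided permutation test, p = 0.1, the smallest it can give). The ratio of Il1r2 to Il1rap was likewise higher in every KO library, at 10.9 to 16.5 against 5.55 to 8.92 in WT (p = 0.1, same exact test). The same full separation was found for Il1rl1 over Il18r1, and for Sigirr over Il1rap, at 24.6, 26.9 and 24.6 in KO against 23.9, 18.7 and 19.6 in WT, although Sigirr was not called. Il1r2 over Il1rl1 was nearly constant in WT, between 1.37 and 1.50, and was 1.57, 0.968 and 0.462 in KO replicates 1, 2 and 3, with overlapping groups (exact permutation p = 0.4). Adjusted over the 6 ratios computed, none of these exact tests can pass 0.05.

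**Figure D4:**
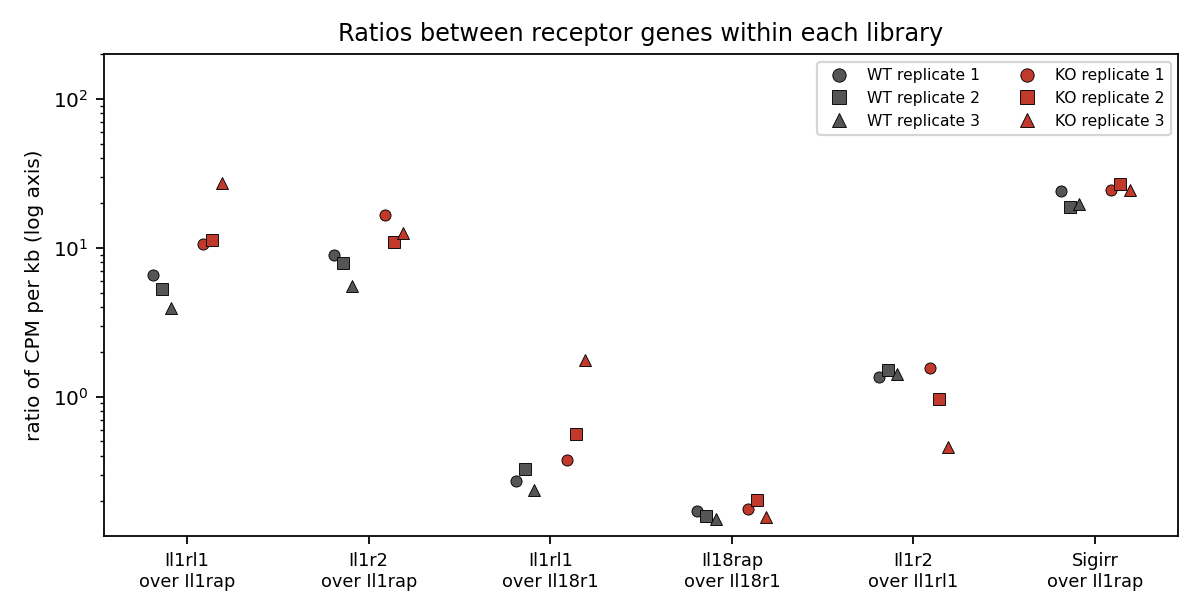
Ratios of CPM per kilobase of merged exons between pairs of receptor genes in each library, on a log axis, with grey symbols for WT and red symbols for KO. Il1rl1 over Il1rap, Il1r2 over Il1rap, Il1rl1 over Il18r1 and Sigirr over Il1rap are higher in all 3 KO libraries, while Il18rap over Il18r1 stays between 0.150 and 0.202 in all 6 libraries.

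The ligand genes found in the matrix were scarce outside KO replicate 1. Of 10 ligand and binding-protein genes listed, 6 were in the matrix, 4 exceeded 3 counts in some library and 2 were tested. Il36a, Il36b, Il36g and Il36rn were not found under those symbols, so their levels were not read. Il1b, a myeloid cytokine, had 554 counts in KO replicate 1 and at most 1 count in any other library, and Il1a had 118 counts there and between 2 and 10 elsewhere. Il33, the ligand of ST2, had 3 counts in KO replicate 1 and 0 in the other libraries. Il18 had 183 counts in KO replicate 1 (10.2 CPM) and between 5 and 22 elsewhere, and was not called (FDR = 0.261). Il18bp, the secreted inhibitor of IL-18, whose exons overlap those of Numa1, was at 8.38, 8.98 and 10.3 CPM in WT and at 85.0, 14.9 and 15.5 CPM in KO. All KO libraries exceeded all WT libraries, but the large value in KO replicate 1 left a wide error (log2 fold change 2.06, SE 0.68, FDR = 0.0732, QLF test). Without KO replicate 1, the log2 fold change of Il18bp was 0.70 and it was called (FDR = 0.0245), as it was with all libraries in edgeR's likelihood ratio and exact tests. Thus the QLF test called 0 of these 2 genes, 1 of which had an unadjusted p under 0.05.

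Genes that process the ligands or transmit the signal were described by lists, to be read against the 11.6% of all tested genes called higher and 7.27% called lower. In the list of 8 genes for processing of IL-1 and IL-18, 7 were tested and 1 was called, with a median log2 fold change of 0.17. That gene was Casp1, the protease that matures both cytokines, at 46.4, 43.4 and 42.0 CPM in WT and 82.8, 65.0 and 67.8 CPM in KO (log2 fold change 0.71, SE 0.11, FDR = 0.00771). Of 25 genes for MyD88 signalling, 23 were tested, 2 were higher and 2 lower, near those shares of all genes, with a median log2 fold change of 0.11. Peli2, an E3 ligase of the Pellino family, ran from 8.35 to 11.9 CPM in WT and from 20.7 to 57.5 CPM in KO, with a fitted log2 change of 1.97 (SE 0.36, FDR = 0.0120). Mapk9, the kinase JNK2, rose from between 93.2 and 94.3 CPM to between 127 and 162 CPM (log2 fold change 0.60, FDR = 0.00999). Ikbkb, the catalytic kinase that activates NF-κB, fell from 311 ± 10.7 CPM to 218 ± 16.0 CPM (FDR = 0.00987), and Mapk14, the kinase p38α, fell from 182 ± 12.5 CPM to 132 ± 13.6 CPM (SD, n = 3 for each group, FDR = 0.0239). Each of these 4 calls was lost without WT replicate 2 or WT replicate 3, that of Mapk9 also without WT replicate 1 and that of Mapk14 without KO replicate 3, at FDR values from 0.0503 to 0.0973.

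The receptor-proximal genes of that list were not called. Myd88, the adaptor itself, had a log2 fold change of 0.24 (FDR = 0.334), and the kinases Irak1, Irak2 and Irak4 had 0.15, -0.21 and -0.22 (FDR between 0.214 and 0.361). Among 8 inhibitors of the pathway, all tested, 1 was higher, a count near the 11.6% of all genes, with a median log2 fold change of 0.04. This was Nfkbie, which encodes IκBε, at 75.0, 64.9 and 87.5 CPM in WT and 139, 127 and 113 CPM in KO (log2 fold change 0.74, SE 0.13, FDR = 0.0112), and its FDR was 0.0521 without WT replicate 1 and 0.0510 without WT replicate 2. Nfkbia, the gene of IκBα, had a similar log2 fold change of 0.76, with an FDR of 0.0543. It was at 358, 487 and 677 CPM in WT and at 831, 960 and 779 CPM in KO. KO libraries lay wholly above WT for it, as for 22.2% of all tested genes. Other inhibitors varied widely within WT, Tnfaip3 from 246 to 3030 CPM and Dusp1 from 140 to 1046 CPM. Neither was called (FDR = 0.899 and 0.891). Irak3, the inhibitory kinase, had a log2 fold change of 0.02 with all libraries (FDR = 0.980). It was at 16.3, 4.54 and 4.79 CPM in KO replicates 1, 2 and 3, against 8.13 to 8.69 CPM in WT. Without KO replicate 1 its log2 fold change was -0.87 and it was called lower (FDR = 0.0191). In that fit 7.59% of all genes were called lower.

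**Figure D5:**
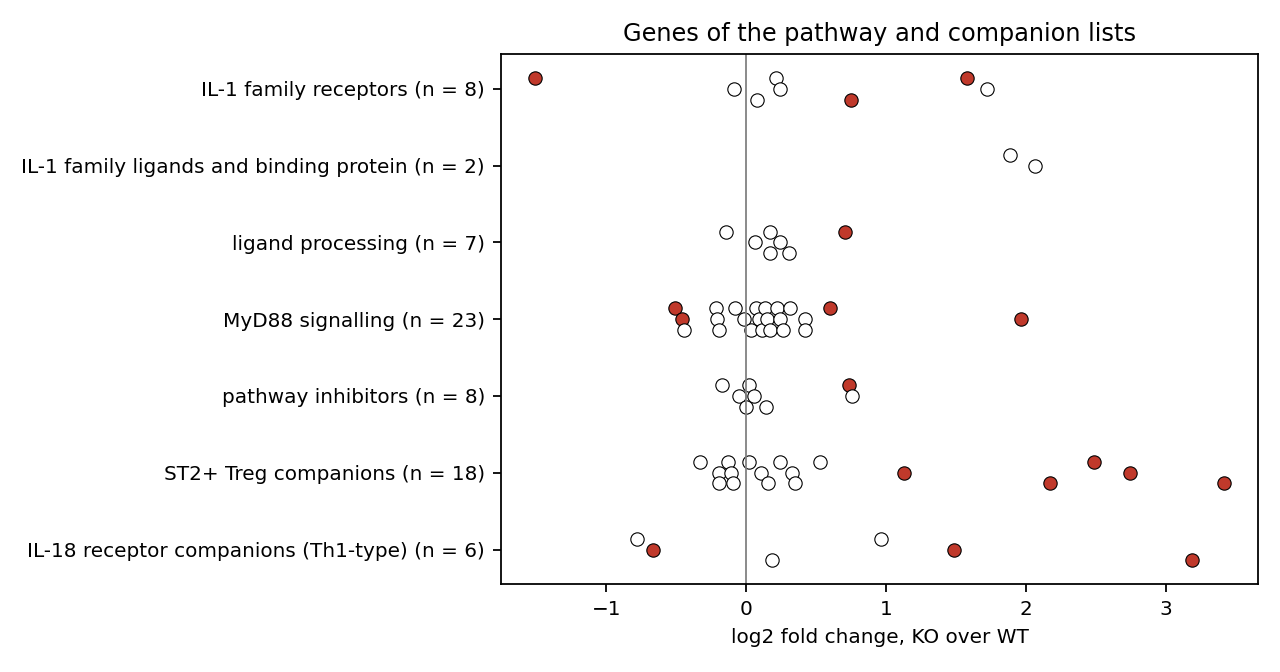
Log2 fold change, KO over WT, of each tested gene in 7 lists, 1 point per gene, with the number tested in parentheses. Filled points have an FDR under 0.05 and open points do not. The MyD88 signalling genes centre near 0 (median 0.11), and the called companion genes of ST2+ Treg cells lie between 1.13 and 3.42.

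Of 18 genes known to accompany ST2 in effector and tissue Treg cells, all tested, 5 were higher in KO, 0 were lower and 13 were not called, against 11.6% higher and 7.27% lower among all genes. Their median log2 fold change was 0.20. Klrg1, a receptor of terminally differentiated Treg cells, rose from 48.4 ± 9.78 CPM to 271 ± 65.0 CPM (log2 fold change 2.49, SE 0.22, FDR = 0.00110). Itgae, which encodes CD103, rose from 121 ± 16.3 CPM to 544 ± 60.0 CPM (log2 fold change 2.18, SE 0.14, FDR = 0.000508). Gzmb (log2 fold change 3.42, FDR = 0.00691), Pparg (2.75, FDR = 0.0199) and Prdm1 (1.13, FDR = 0.0280) were also higher. Pparg was at 1.85, 0.984 and 1.11 CPM in the WT libraries, so it needed its KO libraries to pass the filter. Gzmb, Pparg and Prdm1 were all highest in KO replicate 1. Without that library, the fold changes on the log2 scale were 2.59 for Gzmb, 1.93 for Pparg and 0.77 for Prdm1, and all 3 were still called. The calls of Pparg and Prdm1 were lost without any 1 WT library (FDR from 0.0535 to 0.105), whereas those of Klrg1, Itgae and Gzmb held in all 6 fits without a library. The transcription factor genes Gata3 and Batf, which are needed for ST2 expression in Treg cells, had log2 fold changes of -0.11 (FDR = 0.700) and -0.19 (FDR = 0.521). Areg, which encodes the repair factor amphiregulin, ran from 2.71 to 27.3 CPM in WT and from 13.5 to 15.1 CPM in KO, and was not called (FDR = 0.836).

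Of 6 companion genes of the IL-18 receptor in type 1 helper T cells, all tested, 2 were higher and 1 lower, against 11.6% and 7.27% of all genes. Il12rb1 and Il12rb2, the chains of the IL-12 receptor, had log2 fold changes of 1.49 (FDR = 0.00741) and 3.19 (FDR = 0.0249). KO replicate 1 was highest for both, and without it Il12rb2 was at 1.83 and still called. The call of Il12rb2 was lost without any 1 WT library (FDR from 0.0881 to 0.102), and its exons overlap those of Serbp1. Stat4, the transcription factor downstream of IL-12, was lower in every KO library, at 111, 117 and 129 CPM against 204, 177 and 187 CPM in WT (log2 fold change -0.67, SE 0.10, FDR = 0.00508).

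Along chromosome 1 the receptor genes follow each other on the plus strand in the order Il1r2, Il1r1, Il1rl2, Il1rl1, Il18r1 and Il18rap, over 477.6 kb from 40074079 to 40551705. Within this run, Il1rl1 and Il1r2 were called higher, Il18r1 and Il18rap were not called, and Il1rl2, tested only through its WT libraries, was called lower. Map4k4, the protein-coding gene before the run, had a fitted log2 change of -0.13 (FDR = 0.585), and Slc9a4, the gene after it, had no counts in any library. Further out, Mfsd9 rose from 2.75 ± 0.0915 CPM to 5.35 ± 0.526 CPM (SD, n = 3 for each group, FDR = 0.0171, or 0.0632 to 0.0753 without a WT library), and Rnf149 rose from 58.6 ± 2.97 CPM to 118 ± 18.1 CPM (FDR = 0.00322). Tbc1d8 was not called (FDR = 0.139), at 20.6 CPM in KO replicate 1 and at 1.23 CPM or less elsewhere. Of 10 genes listed beside the run, 4 were tested and 2 called higher, against 11.6% of all genes tested.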

How the data were processed

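RNA-seq was performed on 3 WT and 3 KO libraries of sorted splenic Treg cells. The authors aligned 51-base single-end reads to mm10 with HISAT and counted them by gene with featureCounts, ignoring strand. The deposited values are raw counts that the authors did not normalize. Tool versions and the gene annotation are not given in the sources used here. All 6 sample columns were used.

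The fit covered genes over 1 CPM in 3 or more libraries and used edgeR 4.0.16 under R 4.3.3 (TMM, QLF test, FDR threshold 0.05, two-sided), which is among the tests the study's methods name. Standard errors are the absolute log2 fold change divided by the square root of F. CPM used the TMM-scaled totals of the filtered genes for every gene. Exon lengths, positions and 3′ UTRs came from GENCODE vM21 (GRCm38, the build mm10 names), in which 23376 of 24421 symbols matched. Exons of Myd88, Irak3, Irak4, Dusp1, Gata3 and Tbc1d8 also overlap those of other protein-coding genes, so their reads carry the limit given for Il1rap. No protein sequences were used.

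The receptor genes, lists and tests were chosen with earlier results of these data known. Named were all 9 receptor genes, at most 6 called genes per pathway list, ligand genes over 3 counts, the flanks of the chromosome 1 run and 5 genes nearest in pattern to each of Il1rl1 and Il18r1. Pathway genes that were not called but are discussed were named after their values were seen. The values of 1 listed gene are not reported here, and it was left out of its list. Alternatives covered scaling, DESeq2 1.42.0, filter, threshold, test, a replicate block and leaving out each library. The fit was tested on simulated counts for KO against WT (11570 genes, dispersion 0.045). There, 66.0% of 97 genes changed 2-fold and 97.0% of 99 changed 3-fold were called. These shares hold for that dispersion only. Detection in genes with wider spread between libraries, such as Il1rn, Il18 and Il18bp, was not tested.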

Additional observations from a re-analysis of the deposited data

How the results depend on the processing

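With 1 library left out, 0 to 2 receptor genes were called higher and 0 to 1 lower, 0 to 1 ligand genes were called, 0 to 2 MyD88 genes were higher and 0 to 3 lower, and 3 to 5 ST2+ Treg companions were higher, while 4.18% to 12.3% of all genes were called higher and 1.8% to 8.19% lower. The log2 fold change of Il1rl1 ran from 0.96 to 1.83 and that of Il18r1 from -0.12 to 0.23. These fits had fewer libraries by construction. Il1rl2 without any WT library and Il1rn without some libraries fell below the filter and gave no value. Robust estimation left 1 receptor gene called higher, with Il1rl1 at 1.58 (FDR = 0.0647). An FDR under 0.01 left 0 receptor genes higher and 0 lower, 1 MyD88 gene higher and 1 lower, and 3 companions higher, with Il1rl1 unchanged at 1.58. The likelihood ratio and exact tests each called 1 ligand gene, Il18bp. The cause of these shifts was not tested. Il18r1 reversed to -0.0024 with library size alone and to -0.12 without KO replicate 1. The call of Il1rl1 held under RLE factors, library size alone, DESeq2, the likelihood ratio and exact tests, all 3 edgeR tests together, no filter and filterByExpr, with log2 fold changes between 1.51 and 1.58.

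WT and KO libraries shared replicate numbers, whose meaning is not stated in the sources used here. Deviations of same-numbered libraries correlated at 0.0731, -0.0124 and -0.188 for numbers 1, 2 and 3. Those of differently numbered libraries ran from -0.17 to 0.20. With 3 libraries per group, these values cannot decide whether same-numbered libraries shared a litter or batch. The main fit used no pairing. A replicate block left 1 receptor gene called higher and 1 lower, with Il1rl1 at 1.43 (FDR = 0.0576), against 9.1% and 4.67% of all genes. Counts near the floor limit what can be said of Il1r1, Il1rl2 and Il33.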

Other observations

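The tested genes whose profile over the 6 libraries lay nearest to that of Il1rl1, by the root mean square difference of log2 CPM after centring each gene on its mean, were Slc43a1 (0.24), Srp54a (0.25), Gpr83 (0.26), Fkbp5 (0.27) and Gm973 (0.28). Since they were chosen for this likeness, being highest in KO replicate 3 and higher in KO follows from the choice, and their values are a description. Gpr83, a G protein-coupled receptor gene known from Treg cells, was at 107, 114 and 91.2 CPM in WT and at 262, 314 and 499 CPM in KO. Fkbp5, a co-chaperone gene induced by glucocorticoids, was at 121, 109 and 114 CPM in WT and at 247, 299 and 448 CPM in KO. Slc43a1, an amino acid transporter gene, was at 6.34, 7.58 and 6.86 CPM in WT and at 13.9, 16.7 and 29.1 CPM in KO.

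The profile of Il18r1 was nearest to those of 4930427A07Rik (0.07), 2700094K13Rik (0.07), Fam219a (0.09), Apc2 (0.09) and St7 (0.09). These too were chosen for a profile like that of a gene that was not called. All distances come from the same 6 libraries, so they describe those libraries and say nothing of shared control.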
